A study of Mus musculus with 2 samples.

Results

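The genes described here encode the initiation and elongation factors of cytosolic translation, as measured in a stable line of mouse embryonic stem cells that expresses EWS-OCT4A-GFP and in a control line that expresses GFP. They were chosen by name: a probe set with a single gene symbol that begins with Eif or Eef and a digit, leaving out Eif2s3y and the symbols of the eIF2 kinases, the eIF4E-binding proteins and the eEF1A lysine methyltransferases. The rule found 53 genes of the 22180 with a single-symbol probe set, on 58 probe sets. Where a gene had several probe sets, the one with the highest mean over both samples stood for it. The name is not proof of function, since 2 of the 53 are annotated as a pseudogene (Eif1-ps3) and a noncoding RNA (Eif2c5, an Argonaute-related locus), and several others act outside translation, as stated where they appear.

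EWS-OCT4A joins the EWS protein to OCT4A, the POU transcription factor of pluripotent cells. Both lines derive from the same embryonic stem cell line (labelled NIWA or Niwa), were grown with LIF, and were given doxycycline at 1 µg/ml to lower their endogenous OCT-4. Each group is 1 sample of 1 stable line, and whether a line is a single clone is not stated in these sources. The series text speaks of duplicates, but 1 column of values per line was analysed, so no difference has a replicate check and no test of the conditions was possible. All values are log2 RMA values of an Affymetrix array, and all differences are EWS-OCT4A-GFP minus GFP. Where 2 values of a gene are given side by side, the first is that of the EWS-OCT4A-GFP line, also called the line with the fusion. A gene was called 2-fold different when its difference was at least 1 on this scale and the higher of its values was at least 4.10, which is the median over every value in the table (the floor). No detection call came with the values, so the distance of a weak signal from background cannot be given.

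The samples differed in the markers of their cell type. Of 10 embryonic stem cell markers, 9 were at least 2-fold higher with the fusion and the exception was Pou5f1 (5.37 against 5.24). The 10 ran from 5.37 to 11.00, with a median of 9.00, in that sample and from 4.07 to 7.77, with a median of 5.79, in the control. Of 9 trophectoderm markers, 7 were lower by at least 2-fold with the fusion, with medians of 4.35 there (range 3.63 to 6.96) and 8.01 in the control (range 4.44 to 10.99). The exceptions were Cdx2 (5.54 against 6.09) and Elf5 (3.63 against 4.44). Primitive endoderm markers had 2 of 6 at least 2-fold lower, and their values ran from 2.95 to 5.14 and, in the control, from 3.18 to 6.87. Markers of fibroblasts, as used for feeder layers, had 1 of 8 at least 2-fold lower (Postn) and ran from 1.81 to 5.12 and, in the control, from 1.64 to 6.06. None of these markers read 0. Whether the Pou5f1 probe set detects the fusion was not tested, and no sample without doxycycline was analysed, so the lowering of OCT-4 was not checked here. The part of these differences in cell state in the results that follow was not tested, and a lower share of cells and less RNA per cell cannot be told apart in such samples.

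Translation initiation loads the initiator tRNA onto the small ribosomal subunit with eIF2, recruits that subunit to the mRNA cap through eIF4F and eIF3, scans for the start codon with eIF1 and eIF1A, and joins the large subunit with eIF5B. Elongation is carried by eEF1A, which delivers aminoacyl-tRNA, by the eEF1B complex that recharges eEF1A with GTP, and by eEF2, which moves the ribosome along the mRNA. Embryonic stem cells are known for a lower rate of protein synthesis than their differentiating progeny. The mRNAs of many of these factors and of the ribosomal proteins begin with a pyrimidine tract through which mTORC1 controls their translation.

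Most of the 53 genes differed by less than 2-fold. Of the 51 at or above the floor, 5 were at least 2-fold higher in the EWS-OCT4A-GFP sample, a share of 9.80% that is near the 9.31% of all genes at or above the floor. None of the members was at least 2-fold lower, a size reached by 11.9% of all such genes. Of the same 51, 46 (90.2%) lay within 2-fold, beside 78.8% of all genes that reached the floor. With the 2 members under the floor included, 48 of 53 (90.6%) lay within 2-fold, beside 86.5% of all 22180 genes. At 1.5-fold, 11 members were higher and 1 was lower, beside 20% and 20.6% of all such genes, and at 3-fold 1 was higher and none lower, beside 3.43% and 5.82%. The differences ran from -0.64 for Eif4e3 to 1.79 for Eif1ax, with a median of 0.25 and a middle range (25th to 75th percentile) of -0.15 to 0.51. For the 13516 genes that reached the floor the corresponding values were a median of 0.03 and a middle range of -0.46 to 0.46. A difference above 0 was seen for 36 of the 53 (67.9%) and one below 0 for 16, beside 49.6% of all 22180 genes above 0. Of the 51 members at or above the floor, 36 (70.6%) were above 0, beside 51.2% of all such genes. The median depended on how the arrays were scaled: after loess centring of the difference on the mean level it was 0.14 over the 53. All genes that reached the floor then had a median of -0.04. Of the 51 members that reached the floor, 33 (64.7%) were above 0 after loess centring, beside 47.2% of all such genes.

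**Figure D1:**
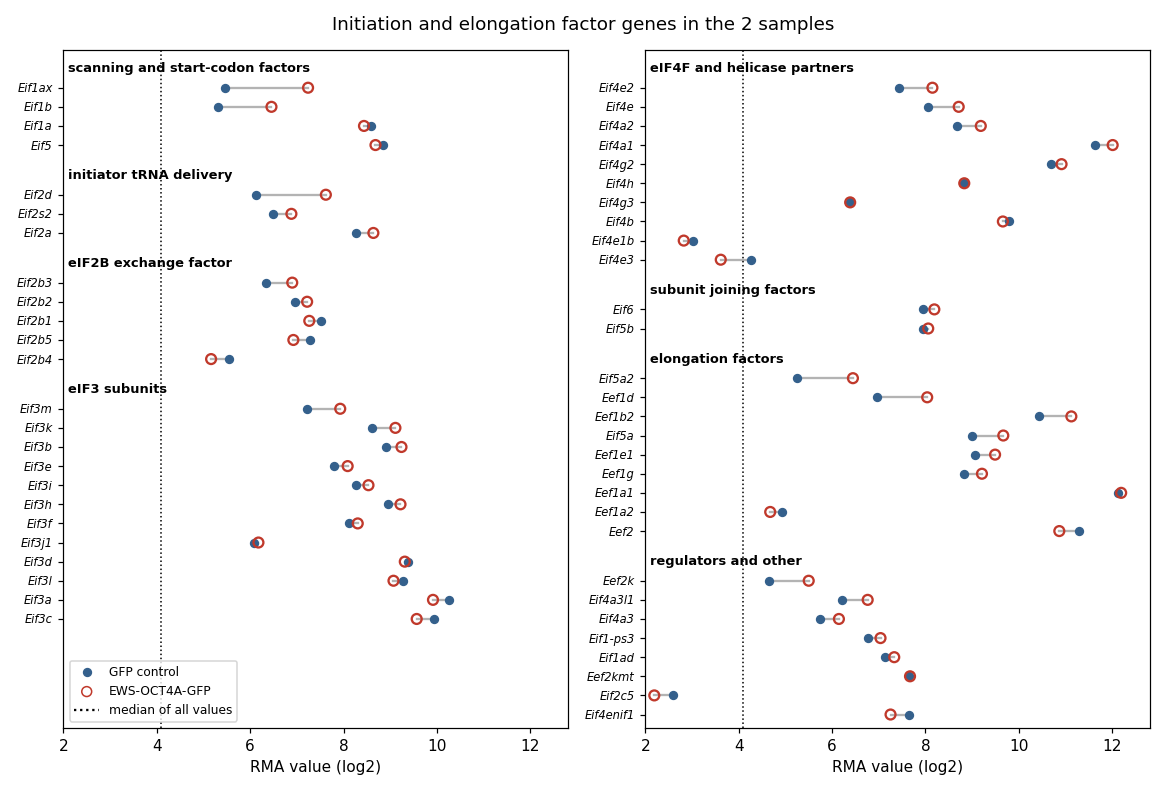
Deposited log2 RMA values (x axis) of the 53 genes, grouped by role, in the GFP control (filled circles) and the EWS-OCT4A-GFP sample (open circles), 1 value per sample, with the floor of 4.10 as a dotted line. The open circle lies well to the right for Eif1ax, Eif2d, Eif5a2, Eif1b and Eef1d, and 2 genes, Eif4e1b and Eif2c5, lie below the floor in both samples.

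The scanning factors held 2 of the 5 genes past 2-fold. Eif1ax, the X-linked gene of eIF1A, which opens the small subunit for scanning together with eIF1, read 7.24 with the fusion and 5.45 in the control, a difference of 1.79 or 3.46-fold. Its autosomal relative Eif1a read 8.44 and 8.59, a difference of -0.15. The difference of Eif1ax exceeded that of Eif1a by 1.94. Eif1b, a close relative of the gene for eIF1, read 6.46 and 5.31, a difference of 1.14 or 2.21-fold. Eif5, which encodes the GTPase-activating protein of eIF2, read 8.68 and 8.85. The pseudogene Eif1-ps3 read 7.04 and 6.77, and probes of eIF1 copies can be shared between them. The gene Eif1 itself had no single-symbol probe set and was not analysed here.

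The eIF2 complex carries the initiator tRNA, and some other proteins can deliver that tRNA in its place. Eif2d, which encodes an initiator tRNA delivery factor also known as ligatin that acts in ribosome recycling and reinitiation, read 7.62 with the fusion and 6.13 in the control, a difference of 1.49 or 2.82-fold. Denr and Mcts1, whose proteins act together at the same step, lay within 2-fold, with Denr at 7.84 and 7.49 and Mcts1 at 5.84 and 5.19. Eif2a, which encodes an alternative initiator tRNA-binding protein and not the alpha subunit of eIF2, read 8.64 and 8.26. Eif2s2, for the beta subunit of eIF2, read 6.88 and 6.49. Eif2s1, for the alpha subunit, is not among the 53 and was not analysed here. All 3 members of this group were thus above 0, with a median of 0.40.

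The gamma subunit of eIF2 is encoded by Eif2s3x and, on the Y chromosome, by Eif2s3y, neither of which is among the 53. Eif2s3y read 5.71 with the fusion and 7.87 in the control, a difference of -2.16. Another Y-linked gene, Uty, differed by a similar amount, at 5.26 and 7.28, and Kdm5d was under the floor in both samples. Eif2s3x was represented by probe sets shared with the predicted gene Gm2223, with differences of 0.21 and -0.06. The first read 4.82 with the fusion and 4.62 in the control, and the second 6.28 and 6.34. Both shared probe sets thus stayed within 2-fold, and the copy on the X chromosome was not measured by itself.

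The exchange factor eIF2B, which reloads eIF2 with GTP and is the target of phosphorylated eIF2 in the integrated stress response, was the group with the lowest median, -0.25. All 5 subunits lay within 2-fold. Of its catalytic subunits, Eif2b3 (gamma) read 6.90 and 6.33, a difference of 0.57, whereas Eif2b5 (epsilon) read 6.92 and 7.27, a difference of -0.35. The regulatory subunits were also split. Eif2b2 (beta) differed by 0.25, Eif2b1 (alpha) by -0.25 and Eif2b4 (delta), at 5.16 and 5.55, by -0.39. With 2 subunits above 0 and 3 below, the group showed no common direction.

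The eIF3 complex, the largest initiation factor and the scaffold on which the 43S complex forms, was measured through 12 subunits. All 12 lay within 2-fold, with 8 above 0, 4 below and a median of 0.22, which was 0.11 after loess centring. Eif3m differed most, with 7.93 with the fusion and 7.21 in the control (a difference of 0.71), followed by Eif3k with 9.11 and 8.60 (0.51). Subunits of the middle rank were Eif3b (0.33), Eif3e (0.30), Eif3i (0.27), Eif3h (0.26), Eif3f (0.19) and Eif3j1 (0.11). The 4 subunits below 0 were Eif3d (-0.08), Eif3l (-0.21), Eif3a (9.92 and 10.26, a difference of -0.35) and Eif3c (9.57 and 9.94, a difference of -0.37). Subunits a, b and c, a subset outside the planned groups, had a median of -0.35. That subset holds the lowest of the 12 subunits, Eif3a and Eif3c, and Eif3b, which was above 0. The mRNA differences of the 12 subunits, which belong to one protein complex, ran from -0.37 to 0.71 on the probe sets that stand for them. The subunit gene Eif3g is not among the 53 and was not analysed here.

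The cap-binding complex eIF4F and its helper proteins were measured through 10 genes, of which 6 were above 0, 3 below and Eif4g3, for a scaffold paralog, equal at 6.39 in both samples. Their median of 0.12 turned to -0.02 after loess centring and to 0.22 when only the genes at or above the floor were counted. The gene of the cap-binding protein itself, Eif4e, read 8.71 with the fusion and 8.06 in the control, a difference of 0.66. Eif4e2, for a cap-binding repressor, read 8.15 and 7.42 (0.73). The other relatives were below 0, at low values, with Eif4e3 at 3.62 and 4.25 (-0.64) and the oocyte form Eif4e1b at 2.82 and 3.02. The scaffold gene Eif4g2, which lacks the part that binds eIF4E, read 10.92 and 10.70. The scaffold gene Eif4g1 is not among the 53 and was not analysed here. Of the RNA helicase cofactors, Eif4b read 9.66 and 9.79 and Eif4h 8.83 and 8.82, neither more than 0.13 from 0.

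The helicase genes of this group show how far a value can rest on the probe set. Eif4a1, the main eIF4A helicase, read 12.01 and 11.63 (0.39), and its other probe set differed by 0.23. Eif4a2 had 3 single-symbol probe sets, and the one that stands for the gene read 9.19 with the fusion and 8.68 in the control, a difference of 0.51. The next probe set by mean level, 0.004 lower, read 9.93 and 7.93, a difference of 1.99, and the last read 7.05 and 5.44, a difference of 1.61. Either of these would have placed Eif4a2 among the genes past 2-fold, and the mean of the 3 differed by 1.37. Introns of Eif4a2 host small nucleolar RNAs, and the probe sets annotated to the gene together with Snord2 and with Snora81 differed by 1.30 and 1.17. The probe set annotated to Rfc4 and Eif4a2 together differed by 0.50. Which transcript each probe set detects was not tested, so the size for Eif4a2 is uncertain between 0.51 and 1.99.

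**Figure D2:**
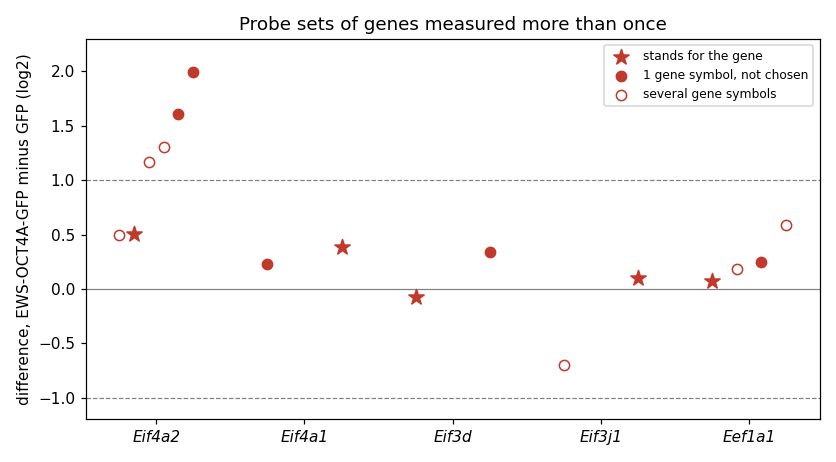
Difference of each probe set (y axis, log2, EWS-OCT4A-GFP minus GFP) for 5 genes measured by more than 1 probe set, with stars for the probe set that stands for the gene, filled circles for other single-symbol probe sets and open circles for those annotated to several genes. Those of Eif4a2 run from 0.50 to 1.99, and the probe set shared by Eif3j2 and Eif3j1 lies at -0.70, below that of Eif3j1 alone.

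Other genes measured more than once were less divided, with an exception in eIF3. Eef1a1 gave 0.07 on its chosen probe set, 0.24 on its other and 0.18 and 0.59 on probe sets shared with the predicted genes Gm6548 and Gm7614. Eif3d gave -0.08 and, on a probe set with values of 3.80 and 3.46, 0.34. Eif3j1 read 6.18 and 6.07 by itself, but the probe set it shares with its near-identical copy Eif3j2 read 7.57 and 8.27, a difference of -0.70. The subunit eIF3j therefore has no settled direction in these data.

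Subunit joining was measured through 2 genes that differed little. Eif5b, the GTPase that joins the large subunit, read 8.06 and 7.95. Eif6, which keeps free large subunits apart from small ones, read 8.19 and 7.96.

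The 9 genes grouped as elongation factors had a median of 0.42, or 0.29 after loess centring, with 7 above 0 and 2 past 2-fold. They include Eef1e1, which despite its name encodes a scaffold of the aminoacyl-tRNA synthetase complex and read 9.49 and 9.07. Without it, a choice made after the values were seen, the other 8 had a median of 0.52, or 0.39 after loess centring, with 6 above 0. The measured subunits of the eEF1B exchange complex were all above 0. Eef1d, the delta subunit, read 8.04 with the fusion and 6.96 in the control, a difference of 1.08 or 2.12-fold, just past the threshold and just short of it after loess centring. Eef1b2 read 11.13 and 10.43 (0.69) and Eef1g 9.21 and 8.83 (0.38). The eEF1A genes, whose protein this complex recharges, lay near 0 or below it on their chosen probe sets. Other probe sets annotated to Eef1a1, alone or with a predicted gene, had lower values and differed by 0.18 to 0.59. Eef1a1, the ubiquitous eEF1A, read 12.19 and 12.12, a difference of 0.07 that turned to -0.12 after loess centring, and Eef1a2, the form of muscle and neurons, read 4.68 and 4.93. Eef2, the translocase, gave 10.87 with the fusion and 11.28 in the control, and its difference of -0.42 was the lowest of the group.

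The genes for eIF5A, the hypusine-bearing factor that helps the ribosome through stretches such as polyproline, were Eif5a2 and Eif5a. Eif5a2 read 6.45 and 5.24, a difference of 1.21 or 2.31-fold. Eif5a read 9.67 and 9.00, a difference of 0.66 that did not reach 2-fold. The enzymes that make hypusine were within 2-fold, with Dhps at 5.97 and 5.27 (0.69) and Dohh at 5.76 and 5.49 (0.27).

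**Figure D3:**
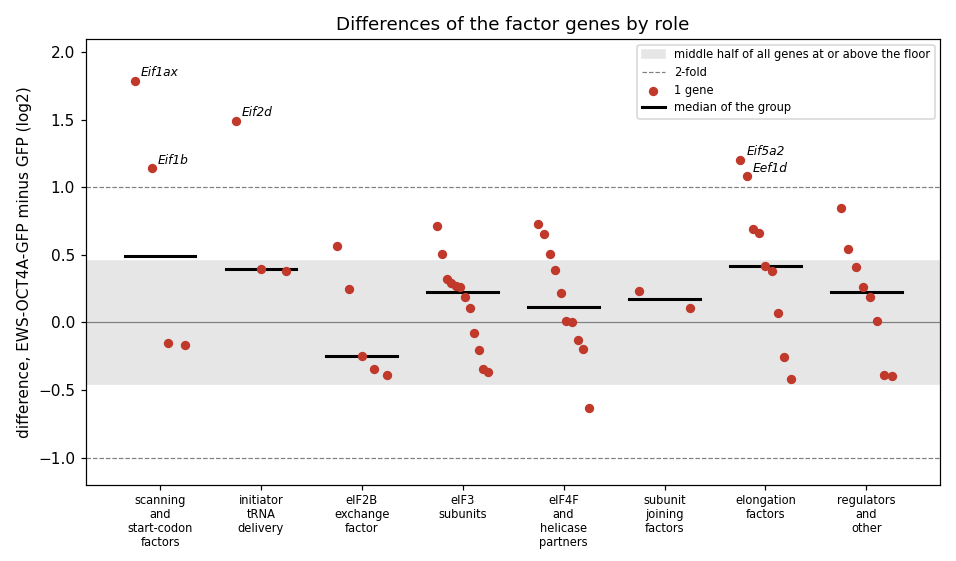
Difference of each of the 53 genes (points; y axis, log2, EWS-OCT4A-GFP minus GFP) by role, with the median of each group as a black line, the 25th to 75th percentile of all genes at or above the floor (-0.46 to 0.46) as a grey band and 2-fold as dashed lines. The 5 named genes lie above the upper dashed line, none lies below the lower one, and eIF2B is the group with a median below 0.

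The remaining genes caught by the rule are regulators or carry a factor's name for historical reasons. Eef2k, whose kinase inhibits eEF2, read 5.50 with the fusion and 4.66 in the control, a difference of 0.85 and the nearest to the 2-fold threshold from within. Eef2kmt, for a methyltransferase of eEF2, read 7.67 and 7.66. Eif4enif1, for the 4E-T protein that carries eIF4E to the nucleus and to P-bodies, read 7.25 and 7.65 (-0.40). Eif4a3, the helicase of the exon junction complex, read 6.15 and 5.74 (0.41) and its copy Eif4a3l1 6.76 and 6.22 (0.54), and a probe set shared by these genes and Gm5576 differed by 0.24. Eif1ad read 7.33 and 7.14 and Eif2c5, below the floor, 2.19 and 2.58. Without the 7 members that are no translation factors (Eif2c5, Eif1-ps3, Eif1ad, Eif4a3, Eif4a3l1, Eef1e1 and Eef2kmt), a choice made after the values were seen, the median was 0.24 and the count past 2-fold remained 5.

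Promoter sequence was available for 41 of the 53 genes, as 55 RefSeq promoters of 300 bases (build GRCm38.p6, 250 bases before to 50 after each annotated start). The hexamer CACGTG, which reads the same on both strands and is the E-box known for binding Myc and Max among other factors, was present for 11 of the 41 genes and in 23.6% of their promoters. The hexamer was present for 8.09% of all 27025 genes with promoter sequence and in 7.15% of all 32851 promoters. It was present in 11.2% of the 7935 promoters of genes whose higher value lay at or above the 75th percentile of all values (5.80). The windows below show it in 2 of the genes past 2-fold (Eif1b and Eif5a2), in the cap-binding gene Eif4e, in the kinase gene Eef2k and in 2 genes with differences below 0 (Eef2 and Eif3a). Each runs 5′ to 3′ on the gene's own strand, with the hexamer in capitals. They lie at chr9:120492570-120492599 (plus strand), chr3:28781148-28781177 (plus), chr3:138527192-138527221 (plus), chr7:120842788-120842817 (plus), chr10:81176576-81176605 (plus) and chr19:60790654-60790683 (minus), in this order.
Eif1b: cgtgcggacggtCACGTGgcggcggcgcgc
Eif5a2: cagggcgagcttCACGTGacggggcgggac
Eif4e: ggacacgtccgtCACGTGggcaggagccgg
Eef2k: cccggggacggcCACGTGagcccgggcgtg
Eef2: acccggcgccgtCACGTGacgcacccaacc
Eif3a: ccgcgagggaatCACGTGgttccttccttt

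The hexamer begins 24 bases before the annotated start in Eif1b, 117 in Eif5a2, 64 in Eif4e, 31 in Eef2k and 43 in Eef2, and 22 bases after it in Eif3a. The promoters of Eif5a2 and Eif4e each hold a further copy, 142 and 228 bases before the start. The other genes that hold it are Eif3f, Eif3k, Eif4a1, Eif4h and Eif5a. The 11 genes with the hexamer had a median difference of 0.51, with 9 above 0, and ran from -0.42 to 1.21. The 30 without it had a median of 0.11, with 18 above 0, and ran from -0.40 to 1.79. Each set held 2 genes past 2-fold, and the ranges of the sets overlap. The split was not made over all genes or after loess centring. Whether genes with the hexamer differ in general is thus not known. Genes with several annotated promoters, such as Eif5a, had more chances to hold a match.

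A pyrimidine tract at the start was looked for as a C followed by at least 4 bases that are each C or T, on the gene's strand, with that C within 10 bases of the annotated start. It was found for 13 of the 41 genes (31.7%), beside 34.4% of all genes with promoter sequence. By promoter it was found in 29.1% of theirs, close to the 30.7% of all promoters. The annotated start can miss the true one, so a tract outside this window was not counted. A run counted here, in Eef1a1 as in the others, need not lie at the start of the mRNA. Which mRNAs begin with a tract was not tested. Windows of 15 bases on either side of the start are shown for 4 genes with a tract: Eef1a1 (chr9:78481710-78481739, minus strand), Eif3f (chr7:108934400-108934429, plus), Eif3l (chr15:79075208-79075237, plus) and Eif2b5 (chr16:20498802-20498831, plus), with the part of the tract from that C onwards in capitals. In Eif2b5 the lower-case bases just before the capitals are pyrimidines too, so its run begins further upstream than the search reached.
Eef1a1: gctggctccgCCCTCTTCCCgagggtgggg
Eif3f: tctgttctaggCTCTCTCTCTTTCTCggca
Eif3l: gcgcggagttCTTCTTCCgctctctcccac
Eif2b5: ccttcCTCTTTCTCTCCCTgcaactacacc

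These 4 genes had differences of 0.07, 0.19, -0.21 and -0.35. The 13 genes with a match had a median difference of 0.19, with 8 above 0 and none past 2-fold. The 28 without a match had a median of 0.38, with 19 above 0 and 4 past 2-fold (Eif1ax, Eif1b, Eif2d and Eif5a2). This split rests on annotated starts, so it does not sort the mRNAs by a tract at their own start. Like the hexamer split, it was made over the members alone and on the deposited values. Eef1d, the other gene past 2-fold, is among the 12 with no promoter sequence used here.

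Genes that work beside the factors were read from lists drawn up by function. Of all 22180 genes 49.6% were above 0, and of those at or above the floor 51.2%. The lists were read on the deposited values only and not after loess centring. Cytosolic ribosomal protein genes, taken by symbol, were above 0 in 57 of 58 cases, with 9 at least 2-fold higher, none lower and a median of 0.60. The factor genes, with 36 of 53 above 0 and a median of 0.25, were thus less uniform, and whether the lists differ could not be tested with 1 sample per group. Cytosolic aminoacyl-tRNA synthetases, which charge tRNAs, had a median of 0.22 with 13 of 18 above 0, and Farsb (8.33 against 7.04) was the 1 past 2-fold. Termination and recycling factors had a median of 0.28, and the release factor genes Etf1 (10.22 and 10.38) and Gspt1 (8.74 and 8.87) differed little. Mitochondrial translation factors had a median of 0.29 with 7 of 9 above 0, and all lay within 2-fold. The list of enzymes that modify eEF1A, eEF2 and eIF5A had a median of 0.41 with 9 of 11 above 0, and all lay within 2-fold. The list also held Eefsec, the elongation factor for selenocysteine and no such enzyme, which read 6.94 and 7.11. Without Eefsec, a choice outside the planned lists, the median was 0.43 with 9 of 10 above 0.

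**Figure D4:**
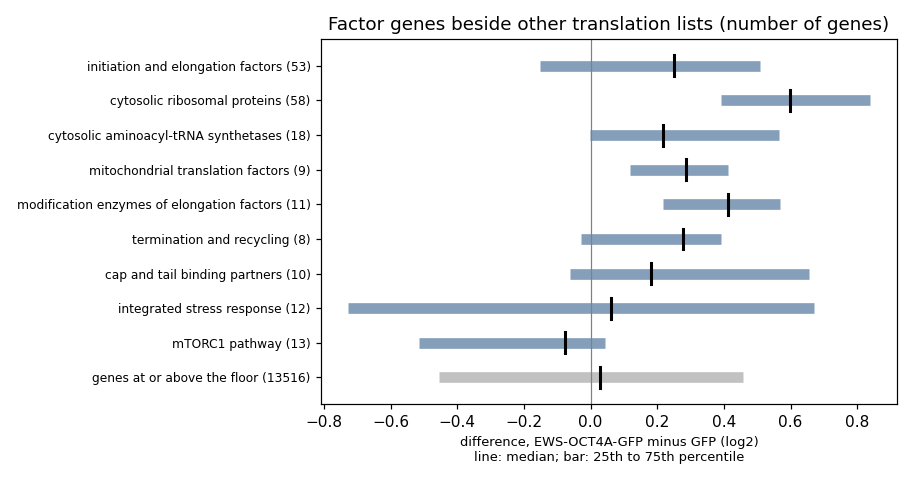
Median difference (line) and 25th to 75th percentile (bar; x axis, log2, EWS-OCT4A-GFP minus GFP) of the factor genes, of 8 other lists and of all genes at or above the floor, with the number of genes in brackets. The ribosomal protein genes have the highest median (0.60), the factor genes lie at 0.25, and the mTORC1 pathway genes lie at -0.08. The mTORC1 list mixes activators and inhibitors, so its median gives no direction of the pathway. Rps6 is counted in both that list and the ribosomal one.

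The regulators of the factors were less alike. Of the eIF2 kinases, Eif2ak1 (7.54 and 7.53), Eif2ak3 (6.04 and 6.12) and Eif2ak4 (5.62 and 5.65) were within 0.1 of 0, and Eif2ak2, the kinase activated by double-stranded RNA, read 5.03 and 5.59. Transcripts of the integrated stress response had 2 of 12 genes past 2-fold in each direction. The amino acid synthesis genes Asns (7.85 and 6.84) and Psat1 (7.54 and 6.53) were higher with the fusion, and Atf3 (4.64 and 6.49) and Vldlr (3.80 and 5.24) lower. Atf4 itself read 7.27 and 6.97. Of the eIF4E-binding proteins, which keep eIF4E from eIF4G, Eif4ebp1 read 8.33 and 7.40 (0.94) and Eif4ebp2 7.77 and 7.46 (0.30). Mknk2, one of the kinases of eIF4E, read 6.76 and 8.38 and was the 1 of 10 cap and tail binding partners past 2-fold in the lower direction, while Paip2b (4.56 and 3.22), an inhibitor of the poly(A)-binding protein, was the 1 past it in the higher. Pabpc1, the poly(A)-binding protein, read 8.19 and 7.25. In the mTORC1 list Deptor, an inhibitor of mTOR, read 8.20 and 6.20 and Sesn1, an inhibitor of mTORC1 induced by p53, read 5.12 and 6.62, while Mtor itself read 6.87 and 7.56. The background of 9.31% higher and 11.9% lower applies to these lists too.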

How the data were processed

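The authors deposited 1 table of RMA values, 33793 probe sets by 2 samples, made with Affymetrix Expression Console 1.1 per the submitters' processing notes. RMA corrects the background, quantile-normalizes and summarises probes. The deposited values were taken as log2, since RMA gives log2, but the table does not state the base. Quantile normalization hides a shift shared by most transcripts. Array number limits the precision. The platform annotation gave 23521 probe sets 1 gene symbol, and all 53 members were found by gene ID in RefSeq (GRCm38.p6), which also supplied promoter sequence.

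Differences, the 2-fold calls, counts and medians were computed with Python 3.11.15, numpy 2.4.6, pandas 2.3.3 and statsmodels 0.14.6 (loess span 0.3). The call rule was run on simulated data with assumed noise and planted changes larger than the threshold. That run checks the code and does not measure false calls in these arrays. Alternatives covered threshold, floor, normalization and probe set rule. A median or difference moved by under 0.1 was counted as kept. Every member could be named; other genes were the 2-fold members of the function lists, the excluded regulators and Eif2s3y, and further ones chosen after their values were seen. The members and lists were chosen with earlier results of these data known.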

Additional observations from a re-analysis of the deposited data

How the results depend on the processing

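No paired analysis was possible because there is 1 sample per group, which also bars leaving a replicate out. At 1.5-fold, 11 members were higher and 1 was lower (20% and 20.6% of all genes at or above the floor), and at 3-fold 1 was higher (3.43%) and none was lower (5.82%). The count of members at least 2-fold higher was 4 after loess centring, 6 with probe sets averaged or with the second probe set for Eif4a2 (an alternative added after seeing the data), 7 with every probe set counted by itself and 5 in the other settings run, and the count lower was 0 in all of these. The median of the members was 0.14 after loess centring and 0.22 to 0.28 after the other normalizations. After loess centring the medians were 0.11 for eIF3, -0.017 for eIF4F and its partners and 0.29 for the elongation factors, and over the members that reached the floor that of eIF4F was 0.22. Loess centring moved 24 of the 53 differences by 0.1 or more, at most by 0.19, and turned the sign of 3 (Eef1a1, Eif4h and Eef2kmt). It removes the trend of the difference with level, by construction. Signal over background is unknown, which limits Eif4e3, Eif4e1b and Eif2c5 most.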
